A study of Mus musculus with 8 samples.

Results

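Collagens are trimeric proteins of the extracellular matrix, and each of their chains is made from its own gene. The collagen chain genes were taken as every row of the expression table whose symbol read Col, a number, the letter a and a second number, which gave 44 of 24341 genes. The rule reads the symbol and no expression value, although earlier results of these data were known when it was set. The chains were then set in 3 classes from textbook knowledge of the proteins, with 11 chains in the fibrillar class, 8 in the basement membrane class and 25 in the remaining class. A mean of at least 0.5 FPKM over all libraries was required for a test, which 33 of the 44 chains and 13777 of all genes met. FPKM is the number of sequenced fragments per kilobase of transcript, scaled to the size of the library, so that the levels of different chains can be set beside each other.

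The study compared RNA from single pancreatic buds of mouse embryos at E11.0, at about 40 somites, between 5 WT buds and 3 buds in which both LATS kinase genes were deleted (Lats1/2PanKO). Lats1/2PanKO stands for the genotype Pdx1Creearly;Lats1f/f;Lats2f/f. In it, Cre recombinase driven by an early Pdx1 transgene removes the floxed alleles from pancreatic progenitor epithelium, a deletion the paper calls pancreas-specific. All 8 buds carried the strain label CD1, and the methods state for the study as a whole that mutant pancreata were set beside WT or heterozygous tissue of littermates. Mesenchyme was pulled off each bud with forceps before the RNA was made, so how much of it stayed behind could differ from bud to bud. Nothing in the labels ties buds to litters, and the p-values below measure the spread between these buds.

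LATS1 and LATS2 are the terminal kinases of the Hippo pathway and hold the coactivators YAP1 and TAZ out of the nucleus, where these act through TEAD transcription factors. Fibrillar collagens form the banded fibers of connective tissue and are made chiefly by mesenchymal cells. Type IV collagen forms the sheet of the basement membrane under epithelium and around vessels, and both the epithelium and its neighbors make it. In the early pancreas, mesenchyme and basement membrane surround the budding epithelium, and the matrix is a known influence on branching. Some chains assemble with partner chains, as in the usual type I and type IV trimers, and others form trimers of a single chain.

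Start-site sequence is shown for 4 chains to which the results below return. Col27a1 was the tested chain with every mutant bud above every WT bud, and Col3a1 was the most abundant chain in WT buds. Col4a5 and Col4a6 lie head to head on the X chromosome and had a ratio that did not overlap between the genotypes. That ratio did not pass adjustment over the pairs compared, which a single separated pair could not do with so few libraries. Each line runs 5′ to 3′ on the gene's own strand from 250 bases before its RefSeq start to the start site in GRCm38.p6. These stretches are chr4:63215162-63215412 on the plus strand for Col27a1, chr1:45311288-45311538 on the plus strand for Col3a1, chrX:141475169-141475419 on the plus strand for Col4a5 and chrX:141474076-141474326 on the minus strand for Col4a6. Capitals mark the TEAD motif GGAATG or its reverse CATTCC, and the NF-Y motif CCAAT or its reverse ATTGG.
Col27a1: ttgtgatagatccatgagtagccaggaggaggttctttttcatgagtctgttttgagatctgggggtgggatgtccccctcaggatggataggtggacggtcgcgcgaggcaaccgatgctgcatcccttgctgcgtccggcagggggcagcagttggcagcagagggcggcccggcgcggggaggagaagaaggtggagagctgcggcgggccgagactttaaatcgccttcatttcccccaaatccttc
Col3a1: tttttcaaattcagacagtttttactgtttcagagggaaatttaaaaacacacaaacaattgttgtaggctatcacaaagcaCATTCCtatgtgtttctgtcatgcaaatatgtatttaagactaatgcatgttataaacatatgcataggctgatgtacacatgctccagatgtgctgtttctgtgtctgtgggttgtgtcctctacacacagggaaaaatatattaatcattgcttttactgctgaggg
Col4a5: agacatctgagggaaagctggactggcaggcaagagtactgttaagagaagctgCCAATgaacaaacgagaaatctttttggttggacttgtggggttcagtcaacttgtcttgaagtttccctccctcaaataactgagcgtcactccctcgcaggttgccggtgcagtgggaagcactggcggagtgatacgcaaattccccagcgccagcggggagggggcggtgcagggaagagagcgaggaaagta
Col4a6: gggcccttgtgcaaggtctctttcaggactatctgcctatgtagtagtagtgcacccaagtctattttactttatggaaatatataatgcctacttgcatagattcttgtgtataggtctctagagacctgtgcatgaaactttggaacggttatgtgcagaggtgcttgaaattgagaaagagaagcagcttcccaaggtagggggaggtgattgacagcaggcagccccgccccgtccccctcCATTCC
Col3a1 and Col4a6 each held a TEAD motif, Col4a5 held a CCAAT motif, and the Col27a1 stretch held neither. The search covered windows of 300 bases, from 250 before to 50 after the start, on both strands, and the windows of 35 chains were present (38 windows). The TEAD motif stood in 5 of those 38 windows (13.2%), those of Col3a1, Col4a6, Col6a2, Col18a1 and Col20a1, against 14.7% of all 32851 windows. The CCAAT motif stood in 34.2% of the chains' windows and 37.4% of all windows. The GC box GGGCGG or its reverse CCGCCC stood in 60.5% of the chains' windows and 35.7% of all windows.

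The libraries were alike in depth apart from 1. A single fragment on a transcript of 1000 bases was worth 0.098 to 0.106 FPKM in 7 libraries and 0.133 in WT replicate 5, which puts the libraries at an estimated 7550000 to 10200000 fragments. That estimate is on the scale of the deposited FPKM and lies below the number of reads per sample that the methods state. The gap was not examined. Between 16117 and 16982 genes, and between 41 and 43 of the 44 chains, were above 0 in each library. Lats1 was 15.6 ± 0.905 FPKM (SD, n = 5) in WT and 12.1 ± 1.87 (SD, n = 3) in mutant buds with no overlap (limma adjusted p = 0.269), and Lats2 was 13.8 ± 1.26 and 12.3 ± 1.15 with overlap (limma adjusted p = 0.589), as measured in whole buds and across the whole transcript.

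Epithelial marker sums were higher in every mutant bud than in any WT bud, whereas mesenchymal and endothelial sums overlapped between the genotypes. The summed FPKM of 16 mesenchymal markers, led by Vim, Barx1 and Hand2, was 1083 to 1278 in WT buds and 1014, 1171 and 930 in Lats1/2PanKO replicates 1, 2 and 3, and 14 of the 16 had a lower mutant mean. Vim, the largest part of that sum, went the other way. It was 432 ± 49.7 FPKM in WT and 493, 464 and 602 FPKM in the mutants. The paper reports VIM protein, and TAGLN in some cells, within mutant epithelium at a slightly later stage, and neither in WT epithelium. Vim and the smooth muscle genes summed below therefore cannot stand for mesenchyme alone across the genotypes. Which cells the Vim RNA came from was not tested. Without Vim, the other 15 markers summed to 602 to 896 in WT and 521, 707 and 328 in the mutants. That sum was taken after the values were seen. For 20 epithelial markers, led by Krt8, Krt18 and Epcam, the sum was 308 to 388 in WT and 672, 564 and 1383 in the mutants, with 19 of 20 higher and 18 at an unadjusted limma p under 0.05. The sum of 16 endothelial markers was 224 to 373 in WT and 246, 233 and 152 in the mutants, with 16 of 16 lower and 5 at an unadjusted p under 0.05. At that p, 4 mesenchymal markers were lower and 1 higher. Of all genes tested, 53.1% had a lower and 46.9% a higher mutant mean. The background at that p was 4.99% of genes lower and 6.29% higher. No gene of these 3 lists was listed at 0 in all libraries, and by these sums mesenchymal and vessel RNA was present in every bud although mesenchyme had been pulled off. Smaller marker sums were 36.8 to 42.5 FPKM in WT and 30.0 to 32.7 in the mutants for smooth muscle, 9.61 to 19.1 and 6.24 to 10.4 for mesothelium, 19.3 to 24.8 and 23.3 to 51.1 for neural crest and nerve, and 12.1 to 27.4 and 19.5 to 27.7 for macrophages, while red blood cell genes summed to 2633 to 15761 and 7963 to 10162. In the neural crest and nerve list, 7 of 8 tested genes had a higher mutant mean. A large part of its mutant sum was Erbb3, at 4.11 ± 0.509 FPKM in WT and 9.47, 6.11 and 18.4 FPKM in the mutants. Which cells the Erbb3 RNA came from was not tested. In whole buds, fewer cells of a type and less RNA per cell cannot be told apart. The epithelial list holds pancreatic transcription factor genes that the paper lists as higher in mutant buds of this stage. Its sum therefore cannot stand for the amount of epithelium alone across the genotypes either. Lats1/2PanKO replicate 3 had the highest epithelial marker sum of the 8 libraries and the lowest mesenchymal and endothelial sums. Many of the class values and single differences below are given with and without that library. Without it, 1 mesenchymal and 2 endothelial markers were lower and 17 epithelial markers higher at an unadjusted limma p under 0.05.

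No collagen chain passed an adjusted p of 0.05 between the genotypes, and the lowest adjusted p among the 33 chains was 0.267 (limma, adjusted over 13777 genes). Across all genes the same fit called 2 (0.0145%), both higher in the mutants. At an unadjusted p under 0.05 the fit held 10 of 33 chains, 9 lower and 1 higher in Lats1/2PanKO, which is 30.3% of the chains beside 11.3% of all genes tested. Split by direction, the background was 4.99% of genes lower and 6.29% higher. Of the 33 chains, 24 had a lower and 9 a higher mutant mean on the log2(FPKM + 1) scale, beside 53.1% of all genes lower and 46.9% higher, and the median log2 fold change was -0.23 beside -0.01 for all genes. The genotypes did not overlap in 3 of 33 chains, 1 higher and 2 lower, beside 7.51% of all genes.

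Much of this difference rested on 1 library. Lats1/2PanKO replicate 3 lay below all 5 WT buds in 20 of 33 chains, beside 24.3% of all genes, whereas replicate 1 did so in 12 chains, beside 15.8%, and replicate 2 in 6, beside 14.8%. Without replicate 3, 1 chain was left at an unadjusted limma p under 0.05, Col27a1 on the higher side, and 0 on the lower side, beside 5.89% of all genes in either direction, 3.69% higher and 2.21% lower. That library also had the lowest mesenchymal and endothelial marker sums, and the part of bud makeup in the collagen values was not tested.

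**Figure D1:**
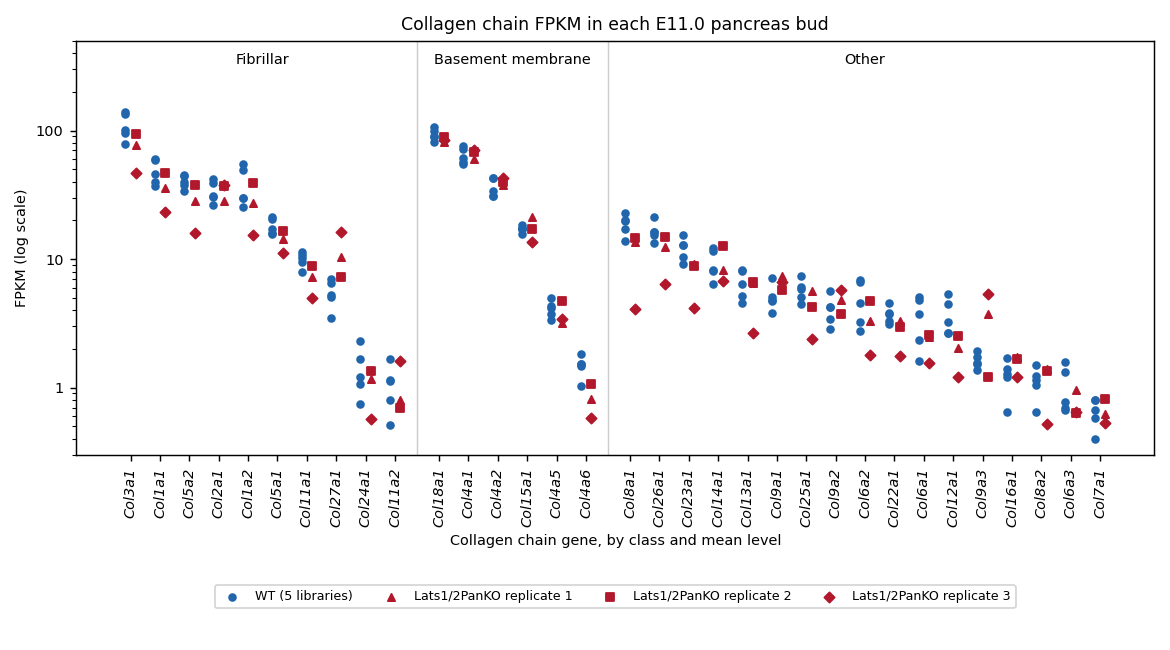
FPKM of the 33 tested chains on a log axis, by class and in order of mean level, with each WT library as a blue dot and each Lats1/2PanKO library as a red symbol of its own. Lats1/2PanKO replicate 3 (diamonds) lies below all 5 WT libraries for 7 of the 10 fibrillar chains and above them for Col27a1.

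Fibrillar chains were the most abundant class and had a lower mean sum in the mutant buds, with Col27a1 in the opposite direction. Their summed level was 359, 368, 246, 264 and 295 FPKM in WT replicates 1 to 5 and 231, 289 and 174 FPKM in Lats1/2PanKO replicates 1 to 3. The groups overlapped, since mutant replicate 2 lay above WT replicates 3 and 4. The mutant mean was 0.755 of the WT mean over all libraries and 0.848 without mutant replicate 3. Of 10 tested fibrillar chains, 8 had a lower mutant mean, 4 were lower and 1 higher at an unadjusted p under 0.05, and the median log2 fold change was -0.41, or -0.20 without mutant replicate 3. Of all genes tested, 53.1% had a lower mean, and 4.99% were lower and 6.29% higher at that p. Without mutant replicate 3, Col27a1 was the 1 chain of any class left at that p.

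Col3a1, which encodes the homotrimeric type III collagen of soft connective tissue, was the most abundant chain in WT buds. It read 134, 141, 78.4, 95.9 and 101 FPKM in WT and 77.0, 94.1 and 46.4 FPKM in the mutants. All 3 mutant values were below the WT median, 2 were below every WT bud, and the groups overlapped through mutant replicate 2. The means were 110.0 ± 26.3 (SD, n = 5) and 72.5 ± 24.2 (SD, n = 3), a log2 fold change of -0.62 ± 0.25 (SE; limma p = 0.0337, adjusted p = 0.399), and the exact permutation test over the 56 splits gave p = 0.0893. Without mutant replicate 3 the log2 fold change was -0.33.

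Col5a2 lies next to Col3a1 on chromosome 1 (Col3a1 at chr1:45311538-45349706 and Col5a2 at chr1:45374331-45503282 in GRCm38) and encodes a chain of type V, a minor collagen that is built into type I fibrils and sets their width. Col5a2 was 45.2, 44.6, 34.1, 37.4 and 40.1 FPKM in WT and 28.1, 37.5 and 16.1 FPKM in the mutants. Mutant replicates 1 and 3 were below every WT bud, and replicate 2 was within the WT range. The log2 fold change was -0.62 ± 0.22 (SE; limma adjusted p = 0.351; exact permutation p = 0.0536), or -0.29 without mutant replicate 3. Its partner Col5a1 was 18.2 ± 2.65 FPKM in WT and 14.1 ± 2.77 in the mutants (log2 fold change -0.35 ± 0.15), and the related Col11a1, a fibril-core chain, was 9.94 ± 1.28 and 6.99 ± 1.90 FPKM (log2 fold change -0.47 ± 0.17). Both stood at an unadjusted limma p under 0.05 with all libraries, with adjusted p of 0.413 for Col5a1 and 0.335 for Col11a1. Without mutant replicate 3 their log2 fold changes were -0.20 and -0.28.

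The type I chains, which form the main fiber of connective tissue, had the same direction but did not reach that mark. Col1a1 was 58.8, 60.1, 37.2, 39.6 and 46.0 FPKM in WT and 36.0, 46.5 and 23.1 FPKM in the mutants (log2 fold change -0.47 ± 0.23; limma adjusted p = 0.506). Its partner Col1a2 was 49.6, 54.7, 25.5, 29.9 and 29.6 FPKM in WT and 27.5, 39.1 and 15.3 FPKM in the mutants (log2 fold change -0.49 ± 0.33; limma adjusted p = 0.632). Without mutant replicate 3 the log2 fold changes were -0.21 for Col1a1 and -0.14 for Col1a2. WT replicates 1 and 2 were the highest libraries for both genes, so that the WT spread alone covered much of the gap. The ratio of Col1a1 to Col1a2 was 1.32 ± 0.187 in WT and 1.34 ± 0.163 in the mutants.

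Col27a1, a fibrillar chain known from developing cartilage and some epithelia, went the other way (chr4:63215412-63334990 in GRCm38). It was 6.99, 6.54, 5.23, 3.50 and 5.04 FPKM in WT and 10.5, 7.20 and 16.3 FPKM in the mutants. Every mutant value was above every WT value, although mutant replicate 2 cleared WT replicate 1 by a small margin. The mean was 2.07 times the WT mean with all libraries and 1.62 times without mutant replicate 3. The log2 fold change was 0.89 ± 0.25 (SE; limma p = 0.0065, adjusted p = 0.267), the exact permutation p of 0.0179 is the smallest that 56 splits can give, and with each library left out in turn the log2 fold change stayed between 0.61 and 1.15. Groups without overlap on the higher side made up 4.46% of all genes tested. The bud highest in Col27a1, mutant replicate 3, was also the bud highest in epithelial markers and the bud lowest in Col27a1 among the mutants, replicate 2, had the lowest mutant sum of epithelial markers, and the part of epithelial content was not tested.

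The remaining fibrillar chains did not separate the genotypes. Col2a1, the main collagen of cartilage and of the notochord sheath, was 33.7 ± 6.50 FPKM in WT and 34.3 ± 5.44 in the mutants. The 9 markers of cartilage and notochord summed to 13.7 to 21.3 FPKM in WT and 20.9, 18.6 and 24.7 FPKM in the mutants, with Noto and Matn1 at 0 in all libraries. Col11a2 was 1.05 ± 0.429 and 1.04 ± 0.503 FPKM, and Col24a1 was 1.40 ± 0.607 and 1.03 ± 0.406 FPKM (log2 fold change -0.23, or -0.055 without mutant replicate 3). Col5a3 was under the level for a test at 0.1004 and 0.1129 FPKM.

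**Figure D2:**
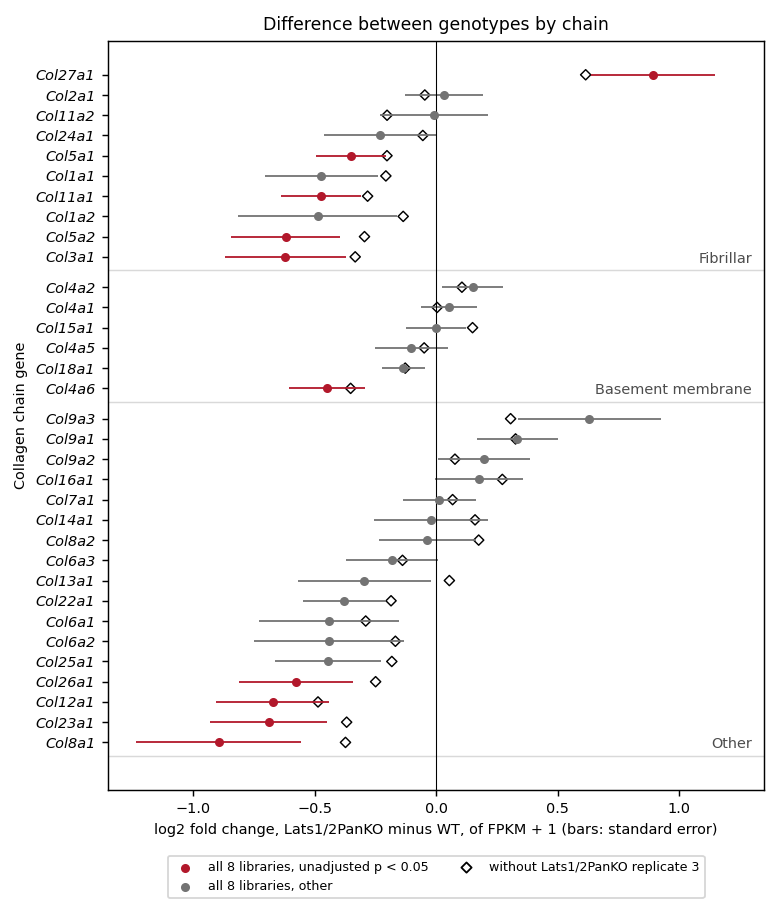
The log2 fold change of each tested chain (Lats1/2PanKO minus WT, of FPKM + 1) with its standard error, by class, with all 8 libraries as filled circles and without Lats1/2PanKO replicate 3 as open diamonds. Red circles mark the 10 chains at an unadjusted limma p under 0.05, and most diamonds lie nearer 0 than their circles.

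Basement membrane chains had nearly the same mean sum in both genotypes. The sum was 239, 198, 199, 199 and 249 FPKM in WT and 204, 220 and 215 FPKM in the mutants, so that all 3 mutant values lay within the WT range. The mutant mean was 0.983 of the WT mean with all libraries and 0.978 without mutant replicate 3. The class median log2 fold change was -0.05 over 6 tested chains, of which 4 had a lower mutant mean and 1 stood at an unadjusted limma p under 0.05. Of all genes tested, 53.1% had a lower mean and 11.3% stood at that p in either direction. As a share of summed collagen FPKM, basement membrane chains made up 35.0 ± 3.66% in WT (29.2 to 38.4%) and 41.4 ± 6.25% in the mutants (38.9, 36.7 and 48.5%). Fibrillar chains made up 48.9 ± 3.61% in WT (45.5 to 54.4%) and 43.8 ± 4.48% in the mutants (44.1, 48.1 and 39.2%). Mutant replicate 2 lay within both WT ranges, replicate 1 just outside both, and replicate 3 furthest from them.

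Col4a1 and Col4a2 encode the chains of the most widespread type IV trimer and start 21 bases apart in opposite directions on chromosome 8. Col4a1 was 72.1, 60.9, 54.7, 57.0 and 75.5 FPKM in WT and 59.8, 67.8 and 70.5 FPKM in the mutants (log2 fold change 0.05 ± 0.12; limma adjusted p = 0.906). Col4a2 was 42.7, 34.1, 31.0, 31.0 and 43.1 FPKM in WT and 38.0, 39.7 and 42.6 FPKM in the mutants (log2 fold change 0.15 ± 0.13; limma adjusted p = 0.712). All mutant values of both genes were within the WT range. Their ratio was tight, at 1.77 ± 0.0554 in WT and 1.65 ± 0.0680 in the mutants, and overlapped between the genotypes (exact permutation p = 0.0536). The ratio of Col4a1 to Col1a1, which sets the basement membrane beside the main fiber, was 1.36 ± 0.242 in WT and 1.66, 1.46 and 3.05 in the mutants, which overlapped through mutant replicate 2 (exact permutation p = 0.0893).

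Col4a5 and Col4a6 encode the chains of a second type IV network, and their start sites lie 1343 bases apart in opposite directions (Col4a5 at chrX:141475419-141689235 and Col4a6 at chrX:141165403-141474076 in GRCm38). Col4a6 was 1.84, 1.48, 1.52, 1.03 and 1.53 FPKM in WT and 0.814, 1.06 and 0.584 FPKM in the mutants (log2 fold change -0.45 ± 0.16; limma p = 0.0184, adjusted p = 0.335; exact permutation p = 0.0357). Col4a5 was 4.29, 4.20, 3.72, 3.34 and 5.02 FPKM in WT and 3.21, 4.73 and 3.40 FPKM in the mutants (log2 fold change -0.10 ± 0.15; limma adjusted p = 0.852). Only WT replicate 4 kept the Col4a6 groups from separating, while the Col4a5 groups overlapped broadly. The ratio of Col4a5 to Col4a6 was 2.33, 2.83, 2.45, 3.24 and 3.29 in WT and 3.94, 4.47 and 5.82 in the mutants. Every mutant ratio was above every WT ratio, a log2 difference of 0.74 that was 0.58 without mutant replicate 3. The exact permutation p was 0.0179, and adjusted over the 10 chain pairs compared it was 0.179. Of the 10 pairs, 0 passed an adjusted p of 0.05, and this pair was the 1 whose groups did not overlap. An exact permutation p of 0.0179 is the smallest this design can give. A lone pair at that p adjusts to 0.179 over 10 pairs, so the adjusted value cannot decide on this pair. Col4a6 rested on few reads, at an estimated 38.5 fragments in its lowest library and a median of 74.2.

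**Figure D3:**
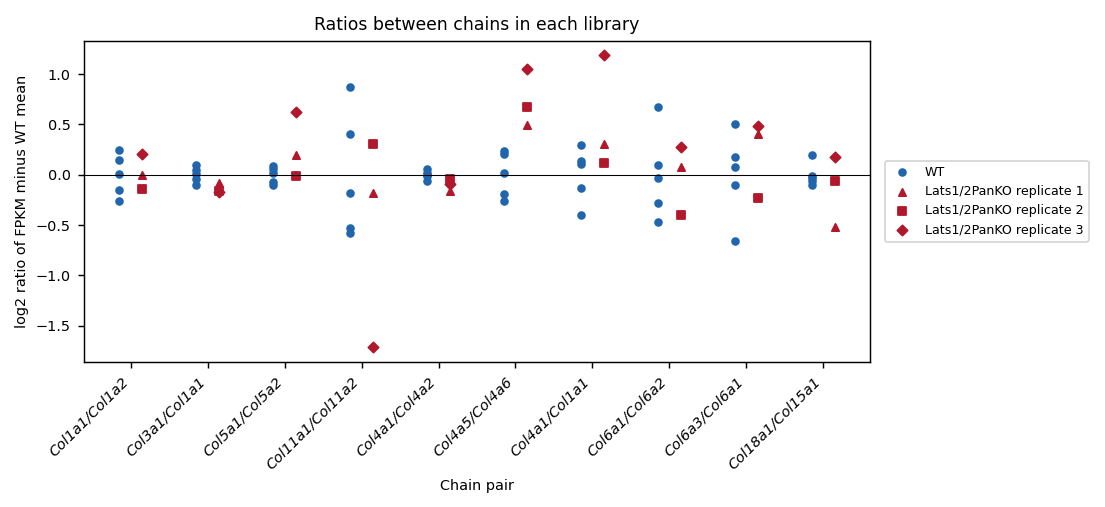
The log2 ratio of FPKM between 2 chains in each library for the 10 pairs compared, set to a WT mean of 0, with WT libraries in blue and each Lats1/2PanKO library as a red symbol of its own. Col4a5/Col4a6 is the pair in which all 3 mutant symbols sit above all 5 WT dots.

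Col18a1 and Col15a1 encode the basement membrane collagens whose C-terminal ends give endostatin and a related fragment, and Col15a1 is a collagen of vessels and muscle. Col18a1 was 99.6, 81.4, 91.2, 89.4 and 106 FPKM in WT and 80.9, 89.8 and 83.9 FPKM in the mutants (log2 fold change -0.13 ± 0.09; limma adjusted p = 0.621). By mean level it was second to Col3a1 in WT buds and above it in mutant buds. Col15a1 was 17.1 ± 1.03 FPKM in WT and 21.2, 17.2 and 13.7 FPKM in the mutants, so that mutant replicate 1 was above and replicate 3 below every WT bud. Col4a3 and Col4a4, the chains of the kidney glomerulus type, were below the level for a test, with WT means of 0.0483 and 0.0257 FPKM.

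The remaining class summed to 112, 111, 84.9, 90.1 and 105 FPKM in WT and 88.9, 91.1 and 54.8 FPKM in the mutants. Mutant replicates 1 and 2 lay within the WT range and replicate 3 below it, and the mutant mean was 0.780 of the WT mean, or 0.897 without replicate 3. Of 17 tested chains, 12 had a lower mutant mean and 4 stood at an unadjusted limma p under 0.05, all lower, with a median log2 fold change of -0.30, or -0.14 without replicate 3. These 4 were Col8a1, Col12a1, Col23a1 and Col26a1, and without mutant replicate 3 they did not stay at that p. Of all genes tested, 53.1% had a lower mean and 4.99% were lower at that p.

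Col12a1 encodes a collagen that sits on the surface of type I fibrils. It was 2.65, 4.49, 5.39, 3.21 and 2.66 FPKM in WT and 2.03, 2.51 and 1.21 FPKM in the mutants. The groups did not overlap, beside 3.06% of all genes without overlap on the lower side, although mutant replicate 2 and WT replicate 1 were close. The log2 fold change was -0.67 ± 0.23 (SE; limma p = 0.0176, adjusted p = 0.331; exact permutation p = 0.0357) and -0.49 without mutant replicate 3.

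Col23a1, a transmembrane collagen, was 12.8, 10.4, 9.21, 12.8 and 15.4 FPKM in WT and 9.15, 8.90 and 4.15 FPKM in the mutants. These groups did not overlap either, by a narrow margin between WT replicate 3 and mutant replicate 1. The log2 fold change was -0.69 ± 0.24 (SE; limma p = 0.0182, adjusted p = 0.335; exact permutation p = 0.0357). Without mutant replicate 3 it was -0.37. The other transmembrane chains that were tested, Col13a1 and Col25a1, were 6.49 ± 1.66 and 5.77 ± 1.11 FPKM in WT and 5.31 ± 2.28 and 4.10 ± 1.61 FPKM in the mutants, and both overlapped. Leaving out mutant replicate 3, the log2 fold change of Col13a1 went from -0.30 to 0.054 and that of Col25a1 from -0.45 to -0.18.

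Col8a1, a short-chain collagen of hexagonal networks that vessels and mesenchyme make, was 22.9, 20.2, 17.2, 13.9 and 19.7 FPKM in WT and 13.5, 14.6 and 4.09 FPKM in the mutants. Mutant replicate 3 was far below the rest, and replicate 2 lay above WT replicate 4. The log2 fold change was -0.89 ± 0.34 (SE; limma adjusted p = 0.376), or -0.37 without mutant replicate 3, so the size of the difference rested on that library. Col26a1, a secreted collagen first described in testis and ovary, was 16.5 ± 2.92 FPKM in WT and 12.4, 14.8 and 6.39 FPKM in the mutants (log2 fold change -0.58 ± 0.23; limma adjusted p = 0.402), or -0.25 without mutant replicate 3. Col8a2, the partner of Col8a1, was 1.11 ± 0.307 and 1.08 ± 0.484 FPKM.

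The type VI chains, which form beaded filaments around cells, were low and overlapped. Col6a1 was 3.52 ± 1.52 FPKM in WT and 2.198 ± 0.552 in the mutants, and Col6a2 was 4.82 ± 1.91 and 3.28 ± 1.46 FPKM. Col6a3, the chain that completes the trimer, was 1.007 ± 0.414 and 0.748 ± 0.187 FPKM. The adjusted limma p of the 3 chains lay between 0.618 and 0.776. Their log2 fold changes were -0.44, -0.44 and -0.18 with all libraries and -0.29, -0.17 and -0.14 without mutant replicate 3.

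The type IX chains, which join fibrils to other matrix and are known from cartilage, had higher mutant means. Col9a3 was 1.53, 1.94, 1.55, 1.73 and 1.37 FPKM in WT and 3.74, 1.21 and 5.35 FPKM in the mutants. Mutant replicates 1 and 3 were above every WT bud and replicate 2 was below every WT bud, so that the mutants spanned the WT range (log2 fold change 0.63 ± 0.29; limma adjusted p = 0.482; exact permutation p = 0.107). Without mutant replicate 2 its log2 fold change was 1.07, and without replicate 3 it was 0.31. Col9a3 rested on few reads, at an estimated 31.5 fragments in its lowest library and a median of 49.1. Exons of Col9a3 share 234 bases with Tcfl5 on the opposite strand, which was at a mean of 0.821 FPKM. Col9a1 was 5.09 ± 1.23 FPKM in WT and 6.59 ± 0.852 in the mutants (limma adjusted p = 0.516), and Col9a2 was 4.07 ± 1.05 and 4.77 ± 0.986 FPKM (limma adjusted p = 0.754).

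Among the other fibril-associated chains, Col14a1 was 9.32 ± 2.48 FPKM in WT and 9.22 ± 3.10 in the mutants, Col22a1 was 3.71 ± 0.543 and 2.67 ± 0.806 (log2 fold change -0.38, or -0.19 without mutant replicate 3), and Col16a1 was 1.25 ± 0.387 and 1.53 ± 0.282. Col7a1, the anchoring fibril chain of skin, was 0.646 ± 0.168 and 0.658 ± 0.141 FPKM. All 4 overlapped between the genotypes. The chains of this class below the level for a test were Col6a4, Col6a5, Col6a6, Col10a1, Col17a1, Col19a1, Col20a1 and Col28a1, with WT means from 0.0179 FPKM (Col19a1) to 0.293 FPKM (Col20a1). Among them Col10a1, the chain of hypertrophic cartilage, was 0.193, 0.331, 0.134, 0.125 and 0.289 FPKM in WT and 0.335, 0.406 and 0.446 FPKM in the mutants, without overlap, but at an estimated 3.96 fragments in its lowest library, and its exons share 18 bases with Nt5dc1 on the opposite strand.

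**Figure D4:**
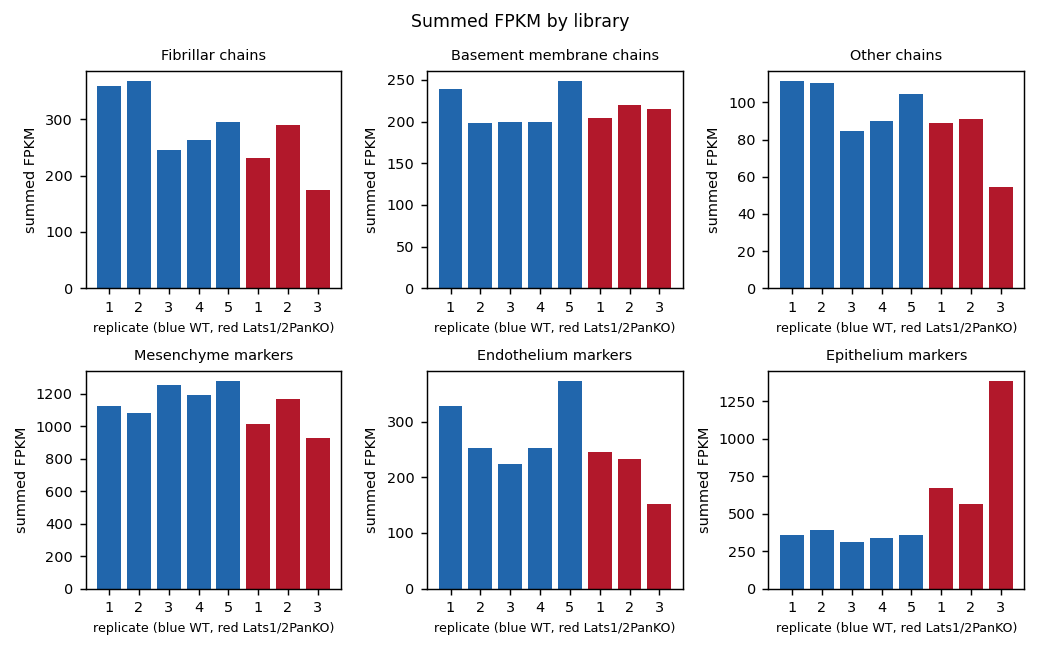
Summed FPKM by library for the 3 collagen classes (upper panels) and for mesenchymal, endothelial and epithelial marker genes (lower panels), with 5 WT libraries in blue and 3 Lats1/2PanKO libraries in red, on axes that start at 0. Lats1/2PanKO replicate 3 has the lowest fibrillar, other, mesenchymal and endothelial sums and the highest epithelial sum, while its basement membrane sum is within the WT range.

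Genes that act on collagen were read from the same fit, and none of them passed an adjusted p of 0.05. Beside the counts below, 4.99% of all genes tested were lower and 6.29% higher at an unadjusted p under 0.05, and 53.1% had a lower mutant mean. Of 18 genes that modify or fold collagen chains, 15 had a lower mutant mean and 3 stood at an unadjusted p under 0.05, all lower (median log2 fold change -0.15), and without mutant replicate 3 the count at that p was 0. P3h4, a partner of lysyl hydroxylation, was 23.0 ± 1.32 FPKM in WT and 19.6, 20.7 and 11.7 FPKM in the mutants without overlap (log2 fold change -0.42 ± 0.16; limma adjusted p = 0.373). Fkbp10, a collagen prolyl isomerase and chaperone, was 23.3 ± 1.40 and 18.2 ± 4.43 FPKM, and P3h3, of the prolyl hydroxylase family, was 13.5 ± 3.14 and 9.44 ± 2.34 FPKM. Leaving out mutant replicate 3 gave log2 fold changes of -0.18 for P3h4, -0.19 for Fkbp10 and -0.28 for P3h3. For P3h3, WT replicate 5 was the highest library at 17.9 FPKM, and the list was not read without that library. The whole list summed to 909 to 966 FPKM in WT and 839, 958 and 792 FPKM in the mutants.

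Of 9 genes that trim or crosslink collagen, 6 had a lower mutant mean, and 1 in each direction stood at an unadjusted p under 0.05, beside 11.3% of all genes in either direction. Pcolce, which speeds removal of the C-propeptide from fibrillar procollagens, was 8.34, 10.7, 8.22, 9.90 and 8.03 FPKM in WT and 13.6, 14.3 and 19.1 FPKM in the mutants. All mutant values were well above all WT values (log2 fold change 0.72 ± 0.13; limma adjusted p = 0.120; exact permutation p = 0.0179). Loxl2, a lysyl oxidase that crosslinks collagen, was 15.1, 15.4, 14.3, 14.05 and 32.6 FPKM in WT and 11.7, 12.1 and 8.32 FPKM in the mutants, also without overlap (log2 fold change -0.66 ± 0.26; limma adjusted p = 0.398). WT replicate 5 was far above the other WT buds for Loxl2 and adds to the size of that difference, which was not read without it. Without mutant replicate 3 the log2 fold changes of Pcolce and Loxl2 were 0.58 and -0.50, and Pcolce was the 1 gene of the list left at an unadjusted limma p under 0.05. Adamts2, which removes the N-propeptide, was 3.85 ± 1.36 and 2.65 ± 0.659 FPKM.

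All 6 tested genes of collagen breakdown and its inhibitors had a lower mutant mean, and 3 stood at an unadjusted p under 0.05. These were Mmp2, a gelatinase, at 38.4 ± 6.24 FPKM in WT and 24.8 ± 9.37 in the mutants, Mrc2, an uptake receptor for collagen, at 13.9 ± 1.27 and 10.01 ± 3.82, and Timp1, an inhibitor of the metalloproteinases, at 9.16 ± 0.890 and 6.42 ± 2.94. The groups of all 3 overlapped through mutant replicate 2, and replicate 3 was the lowest of the 8 libraries for each. Without replicate 3 the count at that p was 0, and the log2 fold changes went from -0.67 to -0.34 for Mmp2, from -0.50 to -0.17 for Mrc2 and from -0.52 to -0.24 for Timp1.

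Receptors and partners of collagen were mixed. Ddr1, a receptor tyrosine kinase for collagen that epithelium makes, was 11.1 ± 1.63 FPKM in WT and 12.7, 13.0 and 21.3 FPKM in the mutants (log2 fold change 0.44 ± 0.17; limma adjusted p = 0.393), and the integrin chains Itga1 and Itga2 were 2.60 ± 0.434 and 1.84 ± 0.399 FPKM in WT and 2.16 ± 0.158 and 1.77 ± 0.366 FPKM in the mutants. Of 8 basement membrane partners of type IV collagen, 4 were higher and 4 lower by mean. Lamc1, a laminin chain, was 38.3, 37.1, 34.9, 32.2 and 41.9 FPKM in WT and 47.5, 41.2 and 68.4 FPKM in the mutants (log2 fold change 0.47 ± 0.15; limma adjusted p = 0.313), Lama5 was 8.01 ± 2.27 and 14.1 ± 7.78 FPKM, and Pxdn, the peroxidase that crosslinks type IV collagen, was 65.1 ± 4.16 and 57.0 ± 3.65 FPKM. Among 6 partners of fibrils, 4 were lower by mean, and Tnc, a glycoprotein of mesenchyme, was 69.7 ± 8.60 FPKM in WT and 50.2, 66.4 and 19.3 FPKM in the mutants (log2 fold change -0.77 ± 0.32; limma adjusted p = 0.419). Sparc, a collagen-binding protein, was 131 ± 23.4 and 160.5 ± 13.4 FPKM, and the proteoglycan gene Dcn was 5.06 ± 1.84 and 3.74 ± 1.84 FPKM. With mutant replicate 3 left out, the log2 fold changes were 0.21 for Ddr1, 0.26 for Lamc1, 0.26 for Lama5, -0.26 for Tnc and -0.02 for Dcn, and Lamc1 was the 1 gene of these 3 lists left at an unadjusted limma p under 0.05.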

How the data were processed

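Total RNA of single buds was made into ribosome-depleted, stranded libraries. Per the methods and the submitters' processing notes, the authors trimmed reads with cutadapt 1.12, aligned them with TopHat2 2.1.0 to mm10 as first-strand libraries, and derived the deposited FPKM values per gene and library with Cuffdiff 2.2.1. The methods mention quantile normalization, but the columns do not share a distribution. Whether strand was used when FPKM were computed is not given in the sources used here.

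FPKM were tested as log2(FPKM + 1) with limma 3.58.1 (R 4.3.3, mean-variance trend) on the 13777 genes that averaged 0.5 FPKM or more, with Benjamini-Hochberg adjustment and the 2 genotypes as groups, after a check on simulated data. Single genes and chain ratios were also tested with the exact two-sided permutation test over 56 splits. Every chain could be named, with the 3 genes of smallest p in each pathway list, the 3 most abundant of each marker list, and Lats1 and Lats2. Promoter windows are from RefSeq (GRCm38.p6). Depth was estimated from steps in low FPKM values of 393 single-exon genes. The chains, classes, pathway and marker lists were chosen with earlier results of these data known. The alternatives added 0.1 in place of 1, raised the floor to 2 FPKM or dropped it, and used quantile or median-ratio scaling, array weights, no trend, the replicate number as a block, a class of type IV chains alone, or 1 library fewer.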

Additional observations from a re-analysis of the deposited data

Results flagged for a closer look

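Of 46 values examined in the 5 WT libraries, 1 had a library that stood apart from the others, and chance alone gives about 1 in 20. The values examined were the tested chains, the class sums and the chain ratios. Pathway and marker genes were not part of this check. In the ratio of Col18a1 to Col15a1, WT replicate 5 was the highest at 6.24, beside 5.08 to 5.41 in the other WT libraries, a gap of 0.716 of the whole range of the group. The group of 3 mutant libraries is too small for this check.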

How the results depend on the processing

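No chain passed an adjusted limma p of 0.05 under any of the 8 alternative settings or with any library left out, so that count stayed at 0, and the lowest adjusted p was 0.054, for Col9a3 without Lats1/2PanKO replicate 2. The count of chains at an unadjusted p under 0.05 ran from 9 to 15 over the settings and from 1 to 13 with a library left out, its lower part from 0 to 11 and its higher part from 1 to 2 with a library left out. Lats1/2PanKO replicate 3 gave the lowest values (1 in all, 0 lower), and without WT replicate 5 there were 6, 5 of them lower. The higher part was 2 with no filter on low values and 3 with array weights. Over all genes the share at that p was 11.3% with all libraries, 18.7% with array weights (13 chains), 9.19% with the replicate block (15 chains), 14.8% without Lats1/2PanKO replicate 2 (13 chains) and 5.89% without replicate 3 (1 chain). The median log2 fold change of the remaining class was -0.0075 with no filter, since chains near 0 then count.

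Same-numbered deviations correlated at 0.089, -0.098 and 0.077, beside -0.12 to 0.14 over all pairs of a WT and a mutant library. Values this small over so few libraries cannot decide whether the replicate numbers pair the libraries. Of 3 mutant libraries, 2 correlated best with the WT library of the same number. With the replicate number as a block, 14 chains were lower and 1 higher at an unadjusted p under 0.05, beside 4.37% and 4.82% of all genes. WT replicates 4 and 5 have no mutant library of the same number, so they do not inform the genotype difference in that fit. Its counts therefore rest on fewer libraries than the main fit.

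Direction turned for 8 chains and 4 ratios under at least 1 alternative. Col15a1 was 0.0022 with quantile normalization, 0.0047 with median-ratio scaling, 0.19 with array weights and 0.0091 with the replicate block. With array weights Col2a1 was -0.077, Col4a1 -0.037 and Col8a2 0.046, and Col7a1 was -0.035 with quantile normalization. With a library left out, the log2 fold change ran from -0.20 to 0.11 for Col11a2, -0.48 to 0.054 for Col13a1, -0.25 to 0.16 for Col14a1, -0.15 to 0.15 for Col15a1, -0.052 to 0.17 for Col2a1, -0.00087 to 0.12 for Col4a1, -0.052 to 0.068 for Col7a1 and -0.15 to 0.17 for Col8a2. Log2 ratio differences ran from -0.073 to 0.10 for Col1a1/Col1a2, -0.16 to 0.18 for Col6a1/Col6a2, -0.29 to 0.057 for Col18a1/Col15a1 and -0.95 to 0.066 for Col11a1/Col11a2. In alternatives chosen after seeing the data, leaving out Lats1/2PanKO replicate 3 took the pathway genes at that p from 3 to 0 for modification and folding, 2 to 1 for trimming and crosslinking, 3 to 0 for breakdown, 1 to 0 for receptors, 2 to 1 for basement membrane partners and 1 to 0 for fibril partners, and leaving Vim out of the mesenchymal sum took its mutant to WT ratio from 0.874 to 0.686. The cause of these turns was not tested. Chains of low FPKM rest on few fragments, which limits the precision of Col4a6, Col6a3, Col7a1, Col8a2, Col9a3, Col11a2, Col16a1 and Col24a1.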
